A study of Homo sapiens with 12 samples.

Results

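The genes described here are 9 nucleic acid editors: the adenosine deaminases ADAR and ADARB1 and the 7 cytidine deaminases APOBEC3A, APOBEC3B, APOBEC3C, APOBEC3D, APOBEC3F, APOBEC3G and APOBEC3H. They were chosen by symbol, and all 9 were found among the 60617 genes of the deposited count table. The counts come from RNA sequencing of the A549 line, established from a human lung adenocarcinoma, with 12 libraries that form 4 groups of 3. WT cells carry neither change. The YTHDF1 KO group had YTHDF1, a reader of N6-methyladenosine in RNA, knocked out per the genotype field, while the sample titles speak of a knockdown, and no label says whether these cells are a clone or a pool. The siARID1A group was treated with small interfering RNA against ARID1A, a subunit of the SWI/SNF chromatin remodeller, and the combined group carries both changes. No control small interfering RNA is named for the WT or YTHDF1 KO groups, so transfection itself and the silencing of ARID1A cannot be told apart. The labels call the replicates biological without naming separate cultures, so the p-values measure only the spread between these libraries, which may be technical.

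ADAR proteins convert adenosine to inosine in double-stranded RNA, and ADAR is known for marking cellular RNA as self so that it does not set off the sensor MDA5 or the kinase PKR. ADAR is transcribed from a constitutive and an interferon-inducible promoter, whose products a count per gene cannot tell apart. APOBEC3 proteins deaminate cytosine to uracil in single-stranded DNA and restrict retroviruses and retroelements. Some of them, chiefly APOBEC3A and APOBEC3B, are known as mutators in tumours. A count of transcripts says nothing about editing itself, and in bulk samples fewer cells expressing a gene and less RNA per cell cannot be told apart.

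ADAR lies on the minus strand of chromosome 1 (chr1:154582057-154628013) and ADARB1 on the plus strand of chromosome 21 (chr21:45073853-45226560). The 7 APOBEC3 genes stand side by side on the plus strand of chromosome 22 (chr22:38952741-39104067). All coordinates are those of GENCODE 29 on GRCh38. The APOBEC3 genes arose by duplication and still share sequence, and this bears on how reads can be counted for each. The coding stretch that holds the zinc-binding site of the last catalytic domain is printed for 5 members that share much of it. Capitals mark the codons of the histidine, the glutamate and the 2 cysteines of that site. The sequences are from GENCODE 29 transcripts on the plus strand of GRCh38.
APOBEC3A, exon 3, chr22:38961420-38961530: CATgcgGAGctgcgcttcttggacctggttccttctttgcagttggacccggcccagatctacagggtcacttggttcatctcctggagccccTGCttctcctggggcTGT
APOBEC3B, exon 6, chr22:38991365-38991475: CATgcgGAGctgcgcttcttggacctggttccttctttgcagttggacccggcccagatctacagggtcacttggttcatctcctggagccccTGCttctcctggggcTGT
APOBEC3C, exon 3, chr22:39017787-39017891: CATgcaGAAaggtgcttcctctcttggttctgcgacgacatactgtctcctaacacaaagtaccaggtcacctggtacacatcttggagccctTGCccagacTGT
APOBEC3D, exon 6, chr22:39031715-39031819: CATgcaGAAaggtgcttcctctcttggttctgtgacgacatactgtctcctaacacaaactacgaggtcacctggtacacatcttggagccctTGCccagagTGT
APOBEC3F, exon 6, chr22:39052095-39052199: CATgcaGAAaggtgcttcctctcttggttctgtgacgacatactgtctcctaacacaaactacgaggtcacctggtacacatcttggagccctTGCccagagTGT
APOBEC3A and the second domain of APOBEC3B were identical over all 111 bases, and the second domains of APOBEC3D and APOBEC3F over all 105 bases. APOBEC3C was identical to APOBEC3D and to APOBEC3F at 101 of 105 bases (96.2%). Between the last domains of the 2 sets the likeness was lower, with 67 of 113 aligned positions identical between APOBEC3B and APOBEC3C (59.3%). The first domains, not printed, cross the sets: that of APOBEC3B was identical to that of APOBEC3F over all 105 bases.

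Over whole coding transcripts, 85.8% of the 50-base words of APOBEC3D also occurred in a transcript of another gene, against 38.7% for APOBEC3B, 36.5% for APOBEC3A, 21.4% for APOBEC3F, 19.1% for APOBEC3G, 1.16% for APOBEC3C, 0.465% for ADAR and 0% for ADARB1 and APOBEC3H. Most of the overlap of APOBEC3D was with AL022318.4, a readthrough gene model whose exons cover 83.2% of its exon bases and which had 0 counts in all 12 libraries. The gene model of APOBEC3A ends inside APOBEC3B, with 348 exon bases in common (chr22:38992431-38992778). How the counting treated reads that fit several genes is not given in the sources used here, so the counts of APOBEC3A, APOBEC3B and APOBEC3D are uncertain on this account, and those of APOBEC3F and APOBEC3G to a lesser degree.

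**Figure D1:**
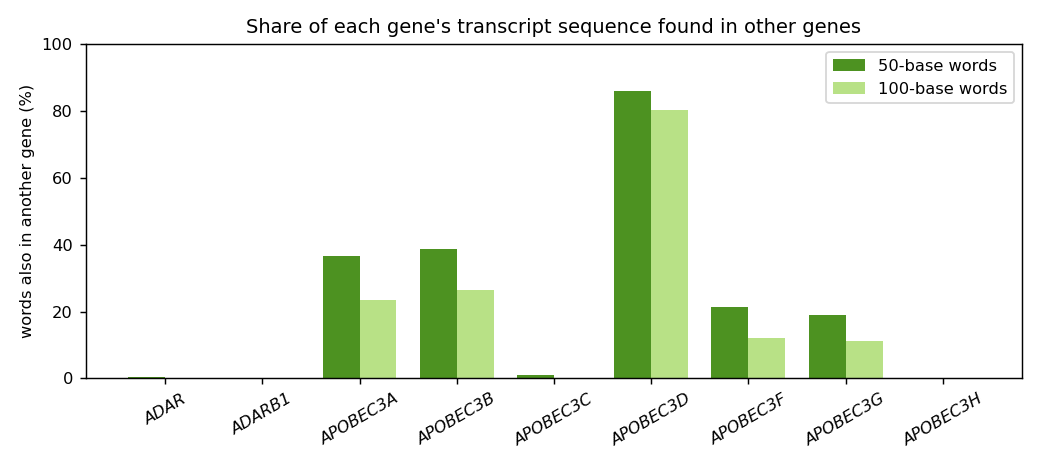
Bars give, for each of the 9 genes, the share (%) of the distinct 50-base and 100-base words of its coding transcripts that also occur in a transcript of another gene in GENCODE 29. APOBEC3D stands highest at 85.8% of 50-base words, and ADAR, ADARB1, APOBEC3C and APOBEC3H lie between 0% and 1.16%.

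Library totals ran from 30220717 to 45042635 counts. In the order WT, YTHDF1 KO, siARID1A, combined, the YTHDF1 transcript had mean levels of 88.2 ± 2.57, 24.9 ± 2.08, 97.9 ± 4.69 and 31.0 ± 1.11 CPM (counts scaled to the library size, mean ± SD, n = 3). The ARID1A transcript had 164 ± 14.1, 161 ± 11.96, 42.5 ± 2.12 and 54.2 ± 6.51 CPM, so each target was reduced where the labels place its loss or silencing, and neither transcript was absent there. YTHDF1 kept 2869 counts over the YTHDF1 KO libraries and 3523 over the combined ones, and transcript counts do not show whether protein was made. ARID1A was higher in the combined group than in siARID1A (log2 0.35 ± 0.11, adjusted p = 0.00214), with an interaction of 0.38 ± 0.15 (adjusted p = 0.0278). WT replicate 2 stood apart from the other WT libraries, with 4.85% of its counts from mitochondrial genes against 6.81% to 8.23% in the other 11 libraries. Of 8 epithelial and A549 markers all were measured, and their summed level was 10700 to 13620 CPM in WT and 10830 to 13030 in siARID1A but 4010 to 4315 in YTHDF1 KO and 4443 to 4741 in the combined group. The 9 lymphocyte markers, which matter here because APOBEC3G and APOBEC3H are abundant in lymphocytes, summed to 0.968 to 4.17 CPM. CD3D and CD2 were at 0 in every library, whereas CD8A was at 0.471 to 2.84 CPM, and NKG7 reached 1.725 and CD79A 1.18 CPM. The 6 markers of monocytes summed to 0.288 to 1.48 CPM. The 7 markers of fibroblasts and endothelium summed to 20.8 to 58.2 CPM, with COL1A1 at 19.6 to 56.9 CPM. The part of the lower epithelial marker level of YTHDF1 KO and the combined group in the results for the editors was not tested.

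Of the 9 editors, 6 passed the filter on low counts and were tested: ADAR, ADARB1, APOBEC3B, APOBEC3C, APOBEC3D and APOBEC3F. Against WT, APOBEC3C and APOBEC3F rose in all 3 other groups, and ADAR rose in the combined group. No tested editor fell against WT. In YTHDF1 KO 2 of the 6 rose, beside 40.4% of all 18524 genes tested that changed (19.6% rose and 20.8% fell). In siARID1A 2 of 6 rose, beside 45.2% of all genes that changed (22.1% rose and 23% fell). In the combined group 3 of 6 rose, beside 51.5% that changed (25.6% rose and 25.9% fell). The number of editors called was thus not far from that of genes at large in each of these comparisons, and it is the size and pattern for single genes that is described in what follows. These 3 comparisons share the WT libraries. All adjusted p-values are from edgeR's quasi-likelihood test with Benjamini-Hochberg adjustment over all genes tested.

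Levels of different genes were compared per kilobase of exon, taking the exon bases of all annotated transcripts of a gene, 9691 for ADAR and 2818 for APOBEC3C. Which transcripts these cells use was not measured. The ± values cover the spread between libraries only, so the order of genes depends on this choice of length. In WT, ADAR was the highest at 45.3 ± 1.15 CPM per kb, followed by APOBEC3C at 30.3 ± 3.71, APOBEC3B at 10.7 ± 0.862, APOBEC3F at 2.13 ± 0.284 and ADARB1 at 0.823 ± 0.116, with no overlap between neighbours in this order. APOBEC3H followed at 0.305 ± 0.188 CPM per kb and APOBEC3D at 0.118 ± 0.0429, and the libraries of these overlapped. The level of APOBEC3D was divided by all its exon bases, 83.2% of which AL022318.4 also covers, so it may be understated. APOBEC3A and APOBEC3G had no count in WT. In siARID1A the first 2 places were exchanged, with APOBEC3C at 55.2 ± 1.38 and ADAR at 41.3 ± 2.64 CPM per kb. In the combined group ADAR was again the highest, at 56.9 ± 3.73 against 42.9 ± 2.68 for APOBEC3C.

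**Figure D2:**
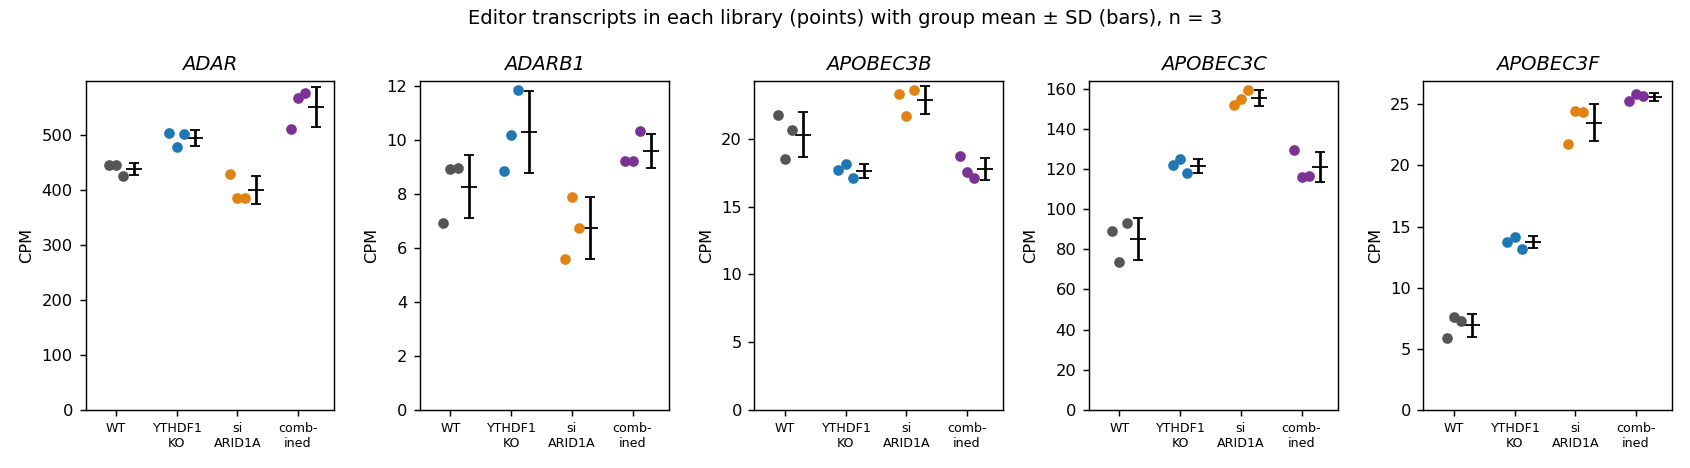
Points are the 12 libraries, the y axis is CPM from 0, and the bar beside each group is the mean ± SD of its 3 libraries. APOBEC3F libraries of WT lie between 5.85 and 7.56 CPM, below every library of the other 3 groups.

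ADAR, the ubiquitous editor of double-stranded RNA, was at 446, 445 and 426 CPM in WT replicates 1 to 3, and at 504, 478 and 501 in YTHDF1 KO. It was at 430, 386 and 386 CPM in siARID1A and at 510, 568 and 577 in the combined group. All combined libraries were above all others, and those of YTHDF1 KO lay above those of WT, while siARID1A overlapped WT. The combined group was higher than WT by 0.33 ± 0.06 (log2 fold change ± SE, adjusted p = 0.000373) and higher than siARID1A by 0.46 ± 0.08 (adjusted p = 1.13e-05). Neither the difference of YTHDF1 KO from WT (0.17 ± 0.03, adjusted p = 0.0568) nor that of siARID1A from WT (-0.13 ± 0.06, adjusted p = 0.137) passed the threshold of 0.05. The first of these did pass without WT replicate 2 (adjusted p = 0.0265), without combined replicate 1 (0.0475), and with library totals in place of the TMM factors (0.00387), with RLE factors (0.0421), without a filter (0.0400) and in DESeq2 (0.0193). The combined group differed from YTHDF1 KO by 0.16 ± 0.06 (adjusted p = 0.112).

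The interaction asks whether siARID1A changed a gene differently in YTHDF1 KO cells than in WT cells. ARID1A itself was lowered by less in YTHDF1 KO cells (log2 -1.57 ± 0.12) than in WT cells (-1.95 ± 0.08), and the part of this difference in the interactions of the editors was not tested. For ADAR it was 0.29 ± 0.08 (adjusted p = 0.0472), that is, the mean moved down with siARID1A in WT cells and up in YTHDF1 KO cells. This call lay at the threshold and was lost under 13 of 17 other settings, 9 of which left out a single library, with adjusted p-values from 0.0214 to 0.132 over all of them. Without WT replicate 2 the adjusted p was 0.0604. In the interaction 3 of the 6 tested editors were called, 1 with a positive and 2 with a negative value, beside 17.1% of all genes (8.87% positive and 8.22% negative).

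ADARB1, whose product ADAR2 edits neuronal receptor transcripts, was far lower, with 665 to 1182 counts summed over the libraries of a group. It was at 6.92, 8.93 and 8.95 CPM in WT and at 8.85, 10.2 and 11.9 in YTHDF1 KO. It was at 5.59, 7.90 and 6.74 CPM in siARID1A and at 9.22, 9.24 and 10.3 in the combined group. Every combined library was above every siARID1A library, whereas YTHDF1 KO and siARID1A each overlapped WT. The combined group was higher than siARID1A by 0.51 ± 0.15 (log2, adjusted p = 0.00843), a call that was lost without siARID1A replicate 1 (adjusted p = 0.0677). No comparison of ADARB1 with WT passed, with adjusted p-values of 0.0840 for YTHDF1 KO, 0.114 for siARID1A and 0.224 for the combined group. YTHDF1 KO passed without WT replicate 2 (log2 0.39, adjusted p = 0.0497), without YTHDF1 KO replicate 1 (0.42, adjusted p = 0.0452) and with library totals (0.40, adjusted p = 0.0351). The siARID1A group passed without WT replicate 1 (log2 -0.41, adjusted p = 0.0393) and without siARID1A replicate 2 (-0.43, adjusted p = 0.0401).

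APOBEC3F, a 2-domain restriction factor of retroviruses, showed the widest spread among the tested editors with more than 100 counts per library. It was at 5.85, 7.56 and 7.29 CPM in WT and at 13.8, 14.2 and 13.2 in YTHDF1 KO. It was at 21.7, 24.4 and 24.4 CPM in siARID1A and at 25.3, 25.9 and 25.7 in the combined group. None of the 4 groups overlapped another. Against WT, the level was 1.99-fold higher in YTHDF1 KO (log2 0.99 ± 0.12, adjusted p = 4.38e-08), 3.41-fold in siARID1A (1.77 ± 0.13, adjusted p = 2.03e-12) and 3.71-fold in the combined group (1.89 ± 0.12, adjusted p = 1.77e-13).

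Adding siARID1A to YTHDF1 KO cells raised APOBEC3F by 0.90 ± 0.03 (log2, adjusted p = 3.28e-07). In this comparison it was the only one of the 6 tested editors called, beside 23.4% of all genes (12.5% rose and 10.9% fell). The combined group was 0.12 ± 0.06 above siARID1A (adjusted p = 0.366), so the difference between these 2 groups did not pass even though their libraries did not overlap. The interaction was -0.87 ± 0.13 (adjusted p = 0.000135): siARID1A raised APOBEC3F by less in YTHDF1 KO cells than in WT cells.

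APOBEC3C, a 1-domain relative that is broadly expressed, was the most abundant APOBEC3 transcript in every group. It was at 89.3, 73.5 and 93.2 CPM in WT and at 122, 125 and 118 in YTHDF1 KO. It was at 152, 155 and 160 CPM in siARID1A and at 130, 116 and 117 in the combined group. WT was the lowest group and siARID1A the highest without overlap, while YTHDF1 KO and the combined group shared one range. The lowest WT value was that of replicate 2. Against WT, the log2 fold changes were 0.51 ± 0.11 in YTHDF1 KO (adjusted p = 6.77e-06), 0.87 ± 0.11 in siARID1A (adjusted p = 2.19e-09) and 0.50 ± 0.12 in the combined group (adjusted p = 6.00e-06). Without WT replicate 2 they were 0.43, 0.79 and 0.41, all still past the threshold.

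Within YTHDF1 KO cells, siARID1A was not seen to move APOBEC3C (log2 -0.01 ± 0.06, adjusted p = 0.955), and its sign changed under 4 other settings. The combined group was lower than siARID1A alone by 0.36 ± 0.06 on the log2 scale (log2 fold change -0.36, adjusted p = 0.000527). The interaction was -0.88 ± 0.12 (adjusted p = 2.72e-06). APOBEC3C and APOBEC3F thus both had a negative interaction, but APOBEC3F was still higher in the combined group than in YTHDF1 KO and APOBEC3C was not.

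APOBEC3B, the 2-domain nuclear member known as a mutator in carcinomas, was at 21.8, 18.6 and 20.7 CPM in WT and at 17.8, 18.1 and 17.1 in YTHDF1 KO. It was at 23.3, 21.7 and 23.7 CPM in siARID1A and at 18.7, 17.5 and 17.2 in the combined group. The 2 groups with YTHDF1 KO were low and siARID1A was high, with WT between them and overlapping siARID1A and the combined group. The combined group was lower than siARID1A (log2 -0.36 ± 0.05, adjusted p = 0.00304). In that comparison 2 of the 6 tested editors rose (ADAR and ADARB1) and 2 fell (APOBEC3B and APOBEC3C), beside 35.4% of all genes that changed (18.2% rose and 17.2% fell). Against WT the log2 differences of APOBEC3B were -0.20 ± 0.07 in YTHDF1 KO (adjusted p = 0.0870), 0.17 ± 0.08 in siARID1A (adjusted p = 0.134) and -0.19 ± 0.08 in the combined group (adjusted p = 0.0894), none past the threshold. Without WT replicate 2 the first and the third passed, at -0.25 (adjusted p = 0.0448) and -0.25 (adjusted p = 0.0380).

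**Figure D3:**
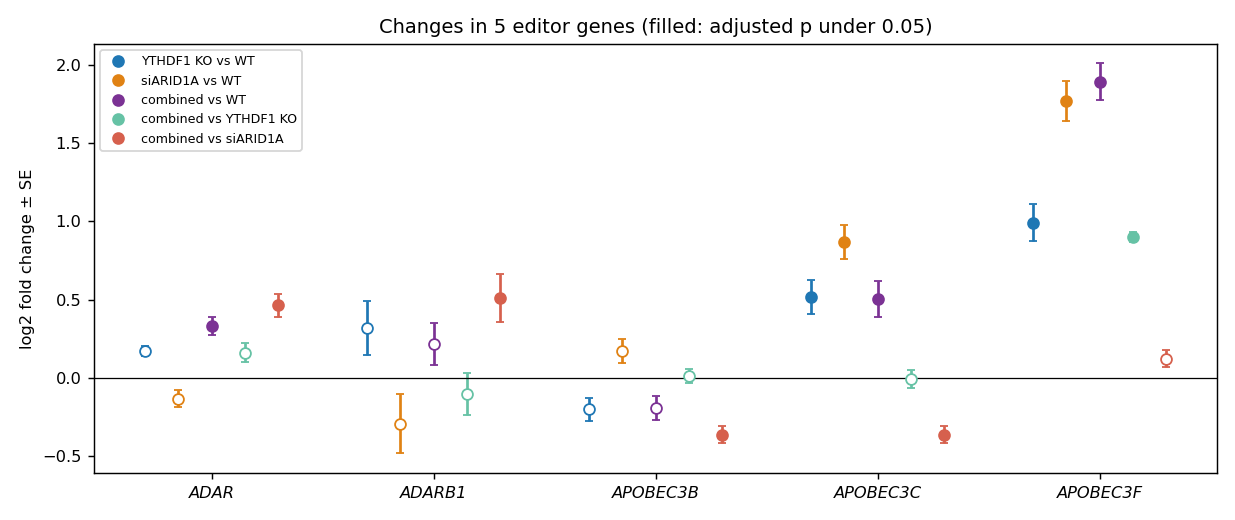
Points are log2 fold changes with their SE for 5 editors in the 5 pairwise comparisons named in the legend, and filled points have an adjusted p under 0.05. APOBEC3F and APOBEC3C lie above 0 in all 3 comparisons with WT, with values from 0.50 to 1.89, whereas both APOBEC3B and APOBEC3C lie at -0.36 in the comparison of the combined group with siARID1A.

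The remaining 4 editors were near the detection limit and are given as raw counts. Among values from 1 to 10, 69.9% to 73.6% were even numbers in each library, and whether both mates of a read pair were counted is not given in the sources used here. Where they were, 2 counts stand for 1 fragment and a low count is less precise than its size implies. APOBEC3D, a 2-domain restriction factor, had 7, 17 and 11 counts in WT, 2, 3 and 6 in YTHDF1 KO, 8, 8 and 20 in siARID1A, and 11, 3 and 4 in the combined group. The YTHDF1 KO libraries lay below those of WT, but the log2 difference of -1.60 ± 0.43 did not pass (adjusted p = 0.1004), nor did any other comparison of APOBEC3D.

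APOBEC3H, a 1-domain member of lymphoid cells, had 6, 28 and 12 counts in WT, 0, 2 and 8 in YTHDF1 KO, 2, 0 and 6 in siARID1A, and 5, 4 and 0 in the combined group. The WT libraries summed to 46 counts and the others to 10, 8 and 9, or 0.221, 0.206 and 0.201 of the WT level after scaling. In CPM each of the other groups overlapped WT, whose highest value was that of replicate 2. When all genes with a count were tested, APOBEC3H did not pass in any comparison with WT (adjusted p = 0.124, 0.0927 and 0.0810).

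APOBEC3G, the T cell factor known for restricting HIV-1 that lacks Vif, had 0 counts in all WT libraries, 0, 0 and 2 in YTHDF1 KO, 1, 0 and 1 in siARID1A, and 4, 2 and 4 in the combined group. A count of 0 over the WT group allows up to 0.0256 CPM, taking 3 counts as the limit for counting error only. The combined group, with its 10 counts taken as exact, was at 3.42 times that limit, and the adjusted p without a filter was 0.114. Where both mates of a pair were counted, the limit is higher and this ratio lower. APOBEC3A, an interferon-inducible member of myeloid cells, had 0 counts in 9 libraries and in combined replicate 1, then 1 and 2 counts in combined replicates 2 and 3. Its expression was not detected in WT, YTHDF1 KO or siARID1A, where 0 counts allow up to 0.0256, 0.0261 and 0.0304 CPM. These limits are higher where both mates were counted, or where reads in sequence shared with APOBEC3B were left out.

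**Figure D4:**
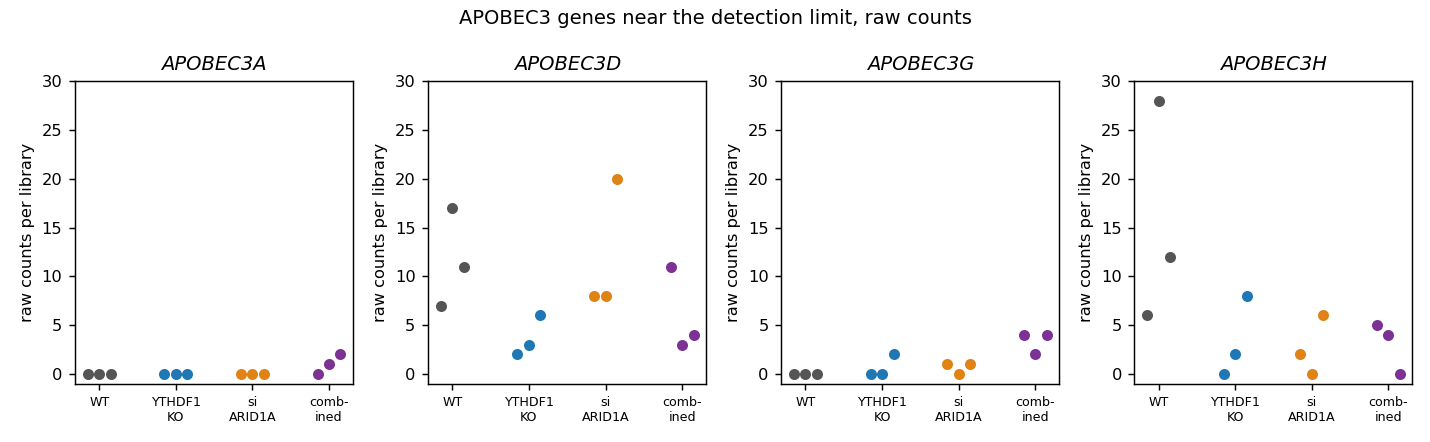
Points are raw counts per library (y axis) of the 4 editors near the detection limit in the 4 groups. No library exceeds 28 counts, APOBEC3G reaches 4, 2 and 4 counts in the combined group, and the APOBEC3H values of WT spread from 6 to 28.

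Summed per kilobase, the 7 APOBEC3 transcripts stood at 43.6 ± 4.16 CPM per kb in WT against 56.8 ± 1.60 in YTHDF1 KO, 74.7 ± 2.05 with siARID1A alone and 60.4 ± 3.12 with both changes. WT libraries lay below those of all other groups and siARID1A libraries above them. APOBEC3C made up 69.4%, 76.0%, 73.9% and 71.1% of the sum in that order of groups. The share of APOBEC3F was 4.94% ± 1.01, 7.44% ± 0.0575, 9.70% ± 0.504 and 13.1% ± 0.798. That of APOBEC3B was 24.7% ± 1.13 in WT and 16.4% ± 0.0409, 16.2% ± 0.703 and 15.6% ± 0.185 in the other groups. In each of the 3 groups the APOBEC3B share was thus lower and the APOBEC3F share higher than in any WT library. The lower share of APOBEC3B in siARID1A did not go with a lower level, which was 12.1 ± 0.557 CPM per kb against 10.7 ± 0.862 in WT. Each of the remaining 4 members had at most 1.28% in any library, and the share of APOBEC3D may be understated like its level.

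Most tested genes around the APOBEC3 cluster did not rise with APOBEC3C and APOBEC3F. Of 29 annotated genes that start within 250 kb of its ends, 16 were tested. Against WT, 2 rose and 7 fell in YTHDF1 KO, beside 19.6% and 20.8% of all genes tested. In siARID1A 0 rose and 6 fell, beside 22.1% and 23% of all genes. In the combined group 3 rose and 6 fell, beside 25.6% and 25.9%. The median log2 fold changes of the 16 were -0.37, -0.35 and -0.42, beside -0.09, -0.09 and -0.11 for the 492 tested genes of chromosome 22. PDGFB, a growth factor chain, fell in all 3 groups, with log2 fold changes of -1.86, -1.497 and -2.68. SUN2, a nuclear envelope protein, fell by 0.73, 0.45 and 0.82, and NPTXR, a pentraxin receptor, by 0.40, 0.93 and 1.47. DNAL4, a dynein light chain, rose by 0.28 in YTHDF1 KO and by 0.40 in the combined group. Near ADAR only 4 of 14 annotated genes were tested, of which UBE2Q1 and CHRNB2 rose in YTHDF1 KO and CHRNB2 rose in siARID1A. In the combined group, where ADAR rose, CHRNB2 rose (log2 1.34), IL6R fell (-0.70) and UBE2Q1 did not pass (0.15, adjusted p = 0.0649).

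**Figure D5:**
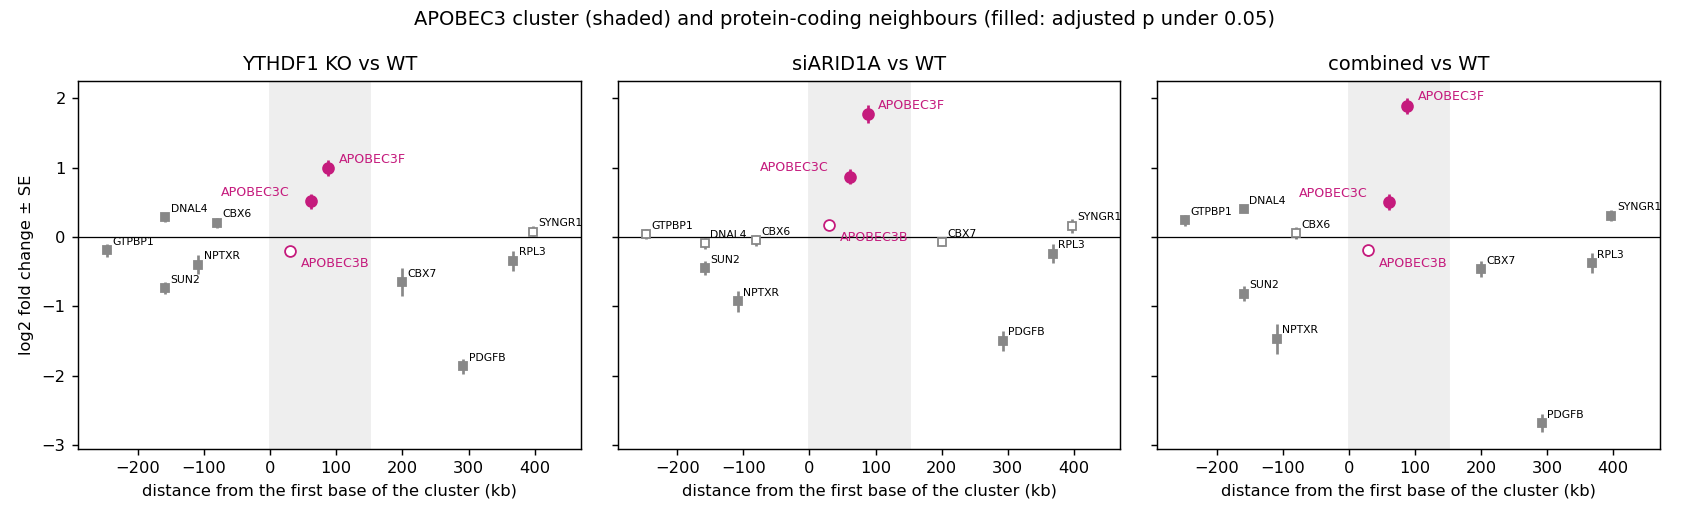
Each panel plots log2 fold change ± SE against the distance in kb of the gene start from the first base of the APOBEC3 cluster (shaded), for APOBEC3B, APOBEC3C and APOBEC3F (circles) and the tested protein-coding neighbours (squares), and filled symbols have an adjusted p under 0.05. APOBEC3F is the highest point in each panel, at 0.99, 1.77 and 1.89, and PDGFB the lowest, at -1.86, -1.497 and -2.68.

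The genes whose log2 CPM followed an editor most closely over the 12 libraries were sought among 9511 genes with a mean of at least 10 CPM. The libraries share their group differences, so these correlations are descriptions. For ADAR they were SCD, the stearoyl-CoA desaturase (Pearson r = 0.964), and RUNX3, a transcription factor (r = 0.964). SCD was at 1493 ± 61.8 CPM in WT against 2051 ± 52.7 in YTHDF1 KO, 1191 ± 161 with siARID1A alone and 2695 ± 258 with both changes, the same order of groups as ADAR. For APOBEC3F they were MEST (r = 0.982) and LMO7 (r = 0.981), and for APOBEC3C the noncoding SNHG16 (r = 0.983) and TXNRD1, thioredoxin reductase (r = 0.970). APOBEC3B was followed by BABAM2 (r = 0.962) and GSTP1 (r = 0.959), and ADARB1 by MBIP and OTUD6B (r = 0.909 for each). The nearest genes for APOBEC3D, ZNF512 (r = 0.879) and TYW5 (r = 0.873), rest on its low counts.

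Sensors and effectors of double-stranded RNA, the pathway that ADAR restrains, mostly rose. Of 10 tested list members 6 rose and 1 fell in YTHDF1 KO, beside 19.6% and 20.8% of all genes tested. In siARID1A 8 rose, beside 22.1% of all genes, and in the combined group 9 rose, beside 25.6%. Median log2 fold changes were 1.47, 1.07 and 2.84, beside -0.01 for all genes in each comparison. IFIH1, which encodes MDA5, stood at 2.28 ± 0.694 CPM in WT and at 29.9 ± 0.858, 11.1 ± 1.01 and 85.9 ± 9.11 in YTHDF1 KO, siARID1A and the combined group. OAS1, a synthetase of the RNase L activator, rose from 47.1 ± 3.09 CPM to 213 ± 3.42, 182 ± 15.3 and 516 ± 11.6. RIGI, the sensor of RNA 5' triphosphates, rose by 1.95 ± 0.13, 0.24 ± 0.14 and 3.25 ± 0.13 on the log2 scale. Its rise in siARID1A was near the threshold (adjusted p = 0.0439), and without WT replicate 2, chosen as an alternative after the data were seen, 7 list members rose in that group. Over the runs that left out a single library, 7185 to 8285 genes were called there in either direction, in place of 8368. The PKR gene EIF2AK2, named here after its values were seen because PKR is a target of ADAR restraint, was at 114 ± 5.95 CPM in WT against 116 ± 8.74 in YTHDF1 KO, 144 ± 7.31 with siARID1A alone and 169 ± 7.98 with both changes. It passed in siARID1A (log2 0.35 ± 0.06, adjusted p = 0.000294) and in the combined group (0.58 ± 0.06, adjusted p = 2.30e-07).

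For restriction of retroelements and retroviruses by other means than deamination 11 genes were tested. In YTHDF1 KO 7 rose and 1 fell, beside 19.6% and 20.8% of all genes tested. In siARID1A 5 rose, beside 22.1% of all genes. In the combined group 10 rose and 1 fell, beside 25.6% and 25.9%. Median log2 fold changes were 0.25, 0.29 and 0.79. HERC5, an ISG15 ligase, was at 5.98 ± 1.23 CPM in WT against 54.9 ± 3.07 in YTHDF1 KO, 7.37 ± 1.15 with siARID1A alone and 127 ± 7.95 with both changes, and its difference in siARID1A did not pass (adjusted p = 0.0730). MX2, a GTPase that blocks HIV-1 nuclear entry, had no count in WT. Set against a floor of 3 counts over the WT group, its level was 52.2 times that floor in YTHDF1 KO and 257 times in the combined group. SERINC3 and SERINC5 encode membrane proteins that reduce virion infectivity. SERINC5 rose in siARID1A (log2 1.04 ± 0.17) and in the combined group (0.79 ± 0.11), and SERINC3 in all 3 groups (0.47 ± 0.05, 0.35 ± 0.05 and 0.41 ± 0.05). The member that fell was SLFN11, a nuclease-like factor of stalled replication forks, from 35.6 ± 2.94 CPM in WT to 1.85 ± 0.620 in YTHDF1 KO and 2.08 ± 0.145 in the combined group. In siARID1A 8 of these genes rose when library totals replaced the TMM factors. That scaling also moved called genes at large towards higher values.

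Uracil left in DNA by APOBEC3 enzymes is removed by glycosylases and the base excision pathway or bypassed by translesion polymerases. Of 11 tested genes of uracil repair and tolerance, 3 rose and 2 fell in YTHDF1 KO, beside 19.6% and 20.8% of all genes tested. In siARID1A 3 rose and 7 fell, beside 22.1% and 23% of all genes. In the combined group 4 rose and 6 fell, beside 25.6% and 25.9%. Median log2 fold changes were -0.00029, -0.41 and -0.23. UNG, the main uracil glycosylase, fell in siARID1A from 100.7 ± 4.85 to 63.9 ± 11.2 CPM (log2 -0.66 ± 0.16, adjusted p = 1.94e-06). APEX1, the abasic site endonuclease, fell by 0.54 and DUT, which hydrolyses dUTP, by 0.63 on the log2 scale in the same group. REV1, which inserts deoxycytidine opposite abasic sites, fell in all 3 groups, by 0.87, 0.41 and 0.85. POLB, the gap-filling polymerase, rose in all 3, by 0.38, 0.52 and 0.61. In the combined group only 2 of these genes fell with library totals, a scaling that moved called genes at large towards higher values.

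Among other deaminases and editing cofactors 9 of 15 were tested. In YTHDF1 KO 1 rose and 4 fell, beside 19.6% and 20.8% of all genes tested. In siARID1A 3 rose and 4 fell, beside 22.1% and 23% of all genes. In the combined group 0 rose and 4 fell, beside 25.6% and 25.9%. The median log2 fold changes of the 9 were -0.16, -0.18 and -0.34. CDA, the cytidine deaminase of nucleoside salvage, was at 18.9 ± 1.69 CPM in WT against 5.80 ± 0.448 in YTHDF1 KO, 37.6 ± 0.723 with siARID1A alone and 7.05 ± 1.30 with both changes. A1CF, a cofactor of the APOBEC1 mRNA editor, moved in the same directions, from 2.76 ± 0.346 CPM to 0.246 ± 0.288, 10.9 ± 2.58 and 0.440 ± 0.0645, while APOBEC1 itself had 0 counts in every library. ADAT3, a subunit of the tRNA adenosine deaminase, fell in siARID1A (log2 -1.17 ± 0.16) and in the combined group (-1.04 ± 0.12). ADARB2, ADAD1 and ADAD2, the remaining relatives of ADAR on the list, had 0 counts throughout, and the muscle protein gene APOBEC2 had 45 counts over all 12 libraries.

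Regulators known to act on ADAR or APOBEC3 genes were counted as well. Of 14 tested, 6 rose and 2 fell in YTHDF1 KO, beside 19.6% and 20.8% of all genes tested. In siARID1A 6 rose and 6 fell, beside 22.1% and 23% of all genes. In the combined group 6 rose and 4 fell, beside 25.6% and 25.9%. Median log2 fold changes of the 14 were 0.06, 0.09 and 0.19. IRF7, an interferon response factor, was at 1.57 ± 0.283 CPM in WT against 10.6 ± 0.464 in YTHDF1 KO, 5.66 ± 1.06 with siARID1A alone and 37.5 ± 2.10 with both changes. STAT2 rose in all 3 groups (log2 0.32 ± 0.04, 0.55 ± 0.05 and 1.53 ± 0.07). NFKB2 and RELB, the non-canonical NF-kB subunits known to drive APOBEC3B, also rose in all 3, NFKB2 by 1.07 ± 0.03, 1.60 ± 0.12 and 1.55 ± 0.08 and RELB by 0.94 ± 0.07, 1.19 ± 0.16 and 1.16 ± 0.10. RBL1, a pocket protein of the DREAM repressor complex, fell by 0.26, 1.10 and 0.97 on the log2 scale. In the combined group 9 of the 14 rose with library totals and 8 without WT replicate 2. Called genes at large also moved towards higher values with library totals. Over the runs that left out a single library, 8533 to 9588 genes were called in either direction, in place of 9537. IRF9, a partner of STAT2, had 24 counts over all 12 libraries and was not tested. This count alone does not show that IRF9 was little expressed, as the treatment of reads that fit several genes is not given.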

How the data were processed

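Per the labels' protocols, total RNA of cultured cells was made into stranded libraries. Per the submitters' processing notes, the genome was GRCh38 and the tools named are edgeR 3.32.1, featureCounts 2.0.1, STAR 2.7.0d, Trim Galore 0.6.6. The authors deposited raw counts per gene. The annotation release, the strand setting and the treatment of reads that fit several genes are not given in the sources used here. Symbols were matched for 60261 of 60617 identifiers, and positions come from GENCODE 29.

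All 12 libraries entered 1 fit in edgeR 4.0.16 (R 4.3.3) with a coefficient per group: filterByExpr (18524 genes tested), TMM factors of 0.912 to 1.06, robust quasi-likelihood F tests, two-sided, and Benjamini-Hochberg adjustment with a threshold of 0.05. The fit was tested on simulated data. SEs come from the SDs of log2 CPM with a prior count of 2, not from the fit, so an SE and its p-value need not match. The members and lists were chosen with earlier results of these data known. Genes named were the 9 members, the targets, up to 4 called genes with the smallest p per list and comparison with WT, the 2 genes most correlated with each tested member, and neighbours within 250 kb. Alternatives were RLE factors, library totals, no filter, DESeq2 1.42.0, only the groups compared, a replicate block and leaving out each library. List counts under other scalings and without WT replicate 2 were added after seeing the data. Some list genes and markers that entered the counts and sums are not reported by name here.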

Additional observations from a re-analysis of the deposited data

Results flagged for a closer look

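For 3 editors the change with siARID1A differed between YTHDF1 KO cells and WT cells by the test of that difference itself, the interaction in edgeR's quasi-likelihood fit. The difference was 0.29 on the log2 scale for ADAR (adjusted p = 0.0472), -0.88 for APOBEC3C (adjusted p = 2.72e-06) and -0.87 for APOBEC3F (adjusted p = 0.000135). For APOBEC3C it ranged from -0.94 to -0.81 and for APOBEC3F from -0.97 to -0.76 over 17 other settings, all past the threshold, while that of ADAR was lost under 13 of the 17. ARID1A had an interaction of its own (log2 0.38 ± 0.15, adjusted p = 0.0278), being lowered by less in YTHDF1 KO cells, and its part in these differences was not tested.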

How the results depend on the processing

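Of 639 values for tested editors under other settings, 598 kept their direction and side of the threshold, 16 newly passed, 14 no longer passed and 11 changed sign. The calls of APOBEC3C and APOBEC3F against WT, and of ADAR in the combined group against WT and siARID1A, held under every setting run. Editors called in YTHDF1 KO against WT numbered 4 with library totals in place of 2, and 2 to 5 when single libraries were left out, with 5 without WT replicate 2. Among all genes, 6383 to 7781 were called in this comparison over the other settings, and 6383 to 7529 with single libraries left out, in place of 7489. Editors called between the combined group and YTHDF1 KO numbered 2 with library totals and 2 with only the groups compared, where ADAR also passed (adjusted p = 0.0253), in place of 1. Among all genes, 3065 to 5912 were called between these groups over the other settings, in place of 4331. With library totals APOBEC3B passed in siARID1A against WT (0.24, adjusted p = 0.0421).

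All sign changes were in values that had not passed. Between the combined group and YTHDF1 KO, APOBEC3C was at 0.035 with library totals, 0.010 without YTHDF1 KO replicate 2, 0.018 without combined replicate 2 and 0.013 without combined replicate 3. ADARB1 was at 0.011 and APOBEC3B at -0.013 without YTHDF1 KO replicate 3, and without combined replicate 1 APOBEC3B was at -0.026 and APOBEC3D at -0.17. APOBEC3D was at -0.00041 in siARID1A against WT without WT replicate 1, at -0.28 without siARID1A replicate 3, and at -0.45 in the interaction without combined replicate 1. With single libraries left out, these ran from -0.061 to 0.018 for APOBEC3C, -0.20 to 0.011 for ADARB1, -0.026 to 0.035 for APOBEC3B and -0.17 to 1.35 for APOBEC3D between the combined group and YTHDF1 KO, and for APOBEC3D from -0.28 to 0.51 in siARID1A against WT and from -0.45 to 1.08 in the interaction. The cause was not tested.

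Replicate numbers did not pair the libraries: over 18 same-numbered pairs the correlation of deviations from group means ran from -0.042 to 0.033, and 3 of 12 libraries correlated best with their own number. With a replicate block the ADAR interaction was 0.29 (adjusted p = 0.0730), and 7284 genes were called in YTHDF1 KO against WT in place of 7489. No other call of an editor changed with the block.

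With library totals the share of higher genes among those called was 61.2%, 57.1% and 63.4% in YTHDF1 KO, siARID1A and the combined group against WT, in place of 48.5%, 49.0% and 49.7%, and 63.5% and 62.2% in the combined group against YTHDF1 KO and siARID1A, in place of 53.5% and 51.4%. The median of all genes in the combined group against WT then moved from -0.01 to 0.13. Low counts limit APOBEC3A, APOBEC3D, APOBEC3G and APOBEC3H, at 0 to 28 counts per library. For APOBEC3A and APOBEC3D, sequence shared with other genes also bears on the counts. The parts of depth and of shared sequence were not tested.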
